A study of Mus musculus with 18 samples.

Results

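A set of 10 genes for writers and readers of RNA 5-methylcytosine (m5C) was followed in nascent RNA of WT and Tet2-KO mouse embryonic stem (mES) cells. The genes were chosen by name, as known writers and readers of the mark, and not by a value measured here. Earlier results of these data were known when they were chosen. Other proteins reported to bind the mark are outside the set. Of the set, 8 encode methyltransferases (Nop2, Nsun2, Nsun3, Nsun4, Nsun5, Nsun6, Nsun7 and Trdmt1) and 2 encode readers (Alyref and Ybx1). They are 10 of the 54446 genes in the count tables, and all 10 were among the 19910 genes with enough reads to be tested. The series holds 18 libraries in 6 groups of 3, WT and Tet2-KO cells after 10, 20 and 40 min with 1 mM 5-ethynyl uridine (EU), a uridine analogue that is built into RNA made during the labelling and lets that RNA be pulled down through biotin. All groups were cultured alike, in serum with LIF and the inhibitors CHIR99021 and PD0325901, and were freed of feeder cells by passaging. Each genotype was a single cell line and its replicates were dishes, so the p-values below measure the spread between dishes and a difference between the lines cannot be told apart from an effect of Tet2.

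In RNA, m5C is made by the NSUN family of enzymes and by TRDMT1, and each enzyme has its own substrates. NOP2 and NSUN5 methylate the large ribosomal RNA of the cytosol, NSUN4 methylates ribosomal RNA in mitochondria, NSUN2 acts on many tRNAs and on other RNAs of the nucleus and cytosol, NSUN3 acts on a mitochondrial tRNA, and NSUN6 and TRDMT1 act on a few cytosolic tRNAs. ALYREF, an adaptor of mRNA export, and YBX1, a cold-shock-domain protein that coats mRNA, both bind the mark, and TET enzymes can oxidize it. The question that these libraries answer for the 10 genes is whether their own synthesis differed between the WT and Tet2-KO lines.

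The genes differ widely in size, which matters because whole genes were counted, introns included. Coordinates are those of mm10 with GENCODE M21. Nsun2 lies at chr13:69533746-69635780 on the plus strand and is the longest, with a span of 102035 bases of which 5737 are in exons. Nop2 lies at chr6:125131909-125144753 (plus strand), Nsun3 at chr16:62732444-62786818 (minus), Nsun4 at chr4:116032842-116053876 (minus), Nsun5 at chr5:135369953-135376805 (plus), Nsun6 at chr2:14995131-15055069 (minus), Nsun7 at chr5:66259897-66298026 (plus) and Trdmt1 at chr2:13509014-13544668 (minus). Of the readers, Alyref lies at chr11:120592121-120598365 (minus) and is the shortest of the genes, with a span of 6245 bases, and Ybx1 lies at chr4:119277981-119294604 (minus).

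Upstream sequence is shown for the writer whose share of nascent RNA was lower throughout (Nop2), for the reader whose share was higher throughout (Ybx1) and for the gene whose share fell with labelling time in both genotypes (Nsun7). The bases come from RefSeq's promoters on GRCm38.p6 and were cut where the annotated transcripts begin. Capitals mark matches, on either strand, to the E-box CACGTG, to the CCAAT box, to the ETS core CCGGAAG, to the NRF1 motif GCGCATGC or to the TATA box, TATAAA. They are from chr6:125131633-125131882 (plus strand), chr4:119294605-119294763 (minus strand) and chr5:66259648-66259896 (plus strand), each written 5′ to 3′.
Nop2: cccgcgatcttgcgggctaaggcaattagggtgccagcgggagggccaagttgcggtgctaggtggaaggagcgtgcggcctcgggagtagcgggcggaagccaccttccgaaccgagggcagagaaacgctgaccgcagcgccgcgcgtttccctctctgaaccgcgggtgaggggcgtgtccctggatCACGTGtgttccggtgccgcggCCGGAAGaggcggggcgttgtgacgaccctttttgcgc
Ybx1: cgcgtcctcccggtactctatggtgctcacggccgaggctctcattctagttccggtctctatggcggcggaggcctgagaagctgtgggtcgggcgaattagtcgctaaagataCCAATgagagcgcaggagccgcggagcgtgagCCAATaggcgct
Nsun7: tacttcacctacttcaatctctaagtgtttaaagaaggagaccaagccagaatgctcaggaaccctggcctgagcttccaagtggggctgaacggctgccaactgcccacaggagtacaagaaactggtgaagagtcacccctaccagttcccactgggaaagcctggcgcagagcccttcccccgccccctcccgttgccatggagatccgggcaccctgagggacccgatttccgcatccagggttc
Over the 250 bases before the RefSeq start, Nop2 held 30 CpG dinucleotides, Ybx1 25 and Nsun7 7, beside a median of 6 over 32851 promoters. The Nop2 window held 1 E-box, which 6.02% of all promoters had, and 1 ETS core, which 6.91% had. The Ybx1 window held 3 CCAAT boxes, of which 2 are in the printed stretch, and 33.8% of all promoters had at least 1. The Nsun7 window held none of these motifs. A match describes the sequence and not a bound factor. Promoters of 9 of the genes were in the table, all but Nsun5.

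Nsun2 is a methyltransferase that the study depleted, and its PCR primers were placed on the transcripts to see which ones they read.
mNSUN2-F: ttaacccgaaccacagaaggaa
mNSUN2-R: cccagtgttaatgaccttcatct
Both primers matched the 3 longest protein-coding transcripts of Nsun2 (4164, 2834 and 2408 bases), with a product of 108 bases, and no other gene held both. The forward primer lies in an exon at chr13:69630671-69630692, and the reverse primer crosses an exon junction between 69630756 and 69631249. These 3 transcripts begin at 69612016 or later, while a pair of short transcripts (485 and 590 bases) begins at 69533746 and 69533768, so most of the annotated span of Nsun2 lies upstream of its main transcripts.

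Reads on genes numbered between 17931614 and 23069143 a library and reads on ERCC spike-ins, synthetic RNAs added in proportion to total RNA, between 44162 and 512186. Replicates of a group differed beyond counting noise in all 18 pairs (mean chi-square per gene of 1.62 to 5.26), and none was taken as a repeat. Tet2 itself was not lost: its share of gene reads, in TMM-scaled counts per 1000000 gene reads (CPM), was 563 to 759 in WT libraries and 530 to 666 in libraries labelled Tet2-KO, and since whole-gene counts cannot reveal a missing exon, the genotypes are those of the labels. Stem-cell markers (10 genes) summed to 2899 to 3150 CPM in WT and 2240 to 2392 in Tet2-KO libraries. In share, 2 of the 9 that could be tested rose, Sall4 by a log2 fold change of 0.37 (SE 0.03) and Pou5f1 by 0.20 (SE 0.03), and 6 fell, Zfp42 the most with -2.21 (SE 0.02). Sox2, which lies within Sox2ot on the same strand, was listed at 0. Markers of feeder fibroblasts (8 genes, 15.7 to 37.6 CPM in all), primitive endoderm (6 genes, 14.5 to 20.7) and trophectoderm (5 genes, 5.33 to 10.99) were low, with Lum the only one of these at 3 reads or fewer over all libraries. Feeder markers summed to 34.3-37.6 CPM in WT and 15.7-19.3 CPM in Tet2-KO libraries at 10 min. The sums were 17.5-19.8 CPM in WT and 23.8-26.2 CPM in Tet2-KO at 20 min, and 21.5-24.5 CPM in WT and 15.9-17.8 CPM in Tet2-KO at 40 min. Fbn1 alone held 14.3 to 22.2 CPM in WT and 10.1 to 15.0 CPM in Tet2-KO libraries. Per ERCC read, 6 feeder markers could be tested. Their median log2 fold change was -0.02, 2.44 and 1.10 at 10, 20 and 40 min, against 0.96, 0.45 and 0.67 over all genes. At 10 min 2 of them were called lower, at 20 min 4 higher and at 40 min 3 higher. The part of these cells in the results below was not tested.

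Synthesis of all 10 genes of the set was higher in Tet2-KO cells when reads were set against the ERCC spike-ins. The rise was about as large as that of other genes. All 10 rose on average over the 3 labelling times, with log2 fold changes from 0.41 (SE 0.05) for Nop2 to 0.95 (SE 0.05) for Ybx1 (quasi-likelihood F test in edgeR, Benjamini-Hochberg adjusted over all genes; highest adjusted p = 7.8e-12, Nsun3). Of all genes tested, 80.5% rose likewise. The median log2 fold change was 0.71 over the members and 0.70 over all genes tested, so the members as a list sat at the middle of the table.

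**Figure D1:**
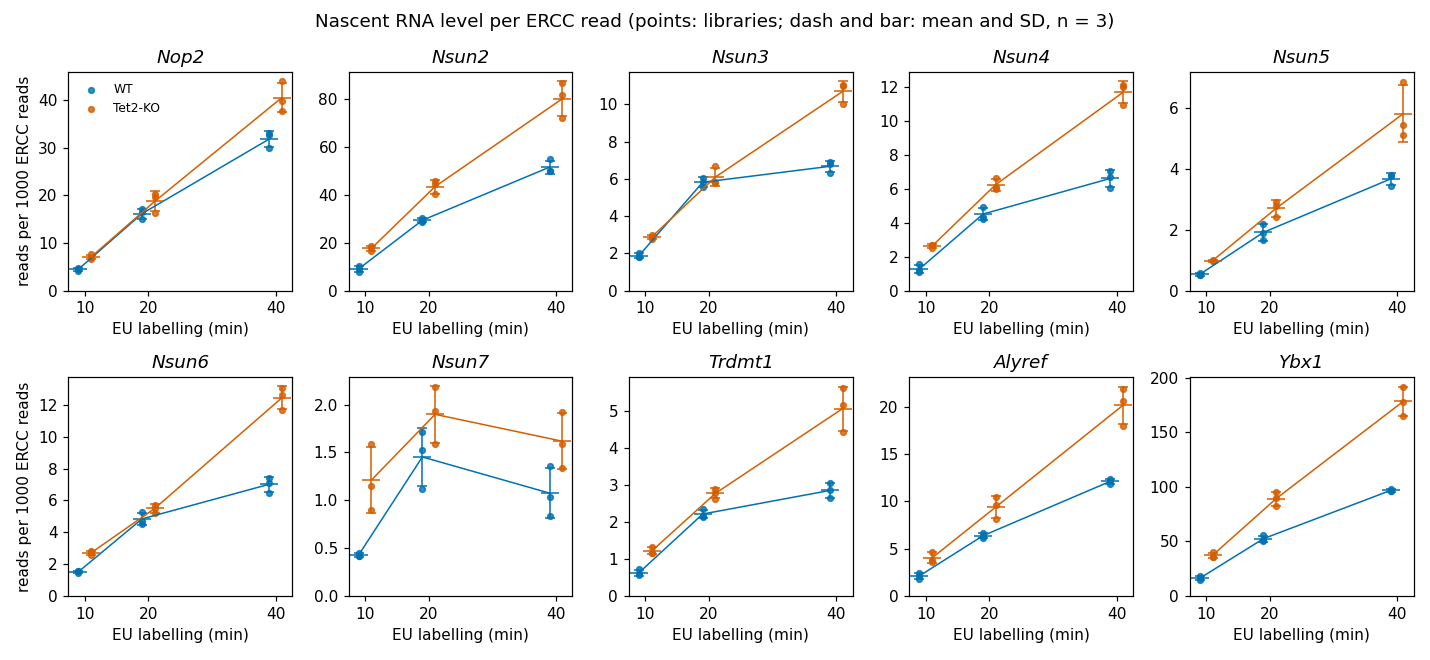
Level of each gene in reads per 1000 ERCC reads (y axis, from 0) against EU labelling time in min (x axis), for WT (blue) and Tet2-KO (orange) libraries. Points are libraries, and dashes with bars are the mean and SD of 3. At 10 min all 3 Tet2-KO libraries lie above all 3 WT libraries for each of the 10 genes, while at 20 min the groups of Nop2, Nsun3, Nsun6 and Nsun7 overlap.

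At 10 min all 10 genes rose (79.0% of all genes did), at 20 min 8 rose (53.7%) and at 40 min all 10 rose (68.2%), and none fell at any time, at an unadjusted p under 0.05 either. The median log2 fold change of the members was 0.94, 0.43 and 0.71 at 10, 20 and 40 min, against 0.96, 0.45 and 0.67 over all genes. The libraries themselves showed the same pattern. Every Tet2-KO library was above every WT library for 10 of the genes at 10 min (75.6% of all genes), for 6 at 20 min (57.2%) and for 9 at 40 min (71.7%). The 20 min count rested on small differences: 5 genes rather than 8 were called without WT 20 min replicate 1, and 5 without Tet2-KO 20 min replicate 3, where Nop2, Nsun7 and Trdmt1 no longer passed, and 6 or 7 without any 1 of the other 20 min libraries.

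Nsun2, the writer with the most nascent RNA reads, had 9.19, 10.3 and 7.81 reads per 1000 ERCC reads in the WT libraries at 10 min and 17.98, 16.4 and 18.5 in the Tet2-KO libraries. At 20 min the values were 28.9, 30.4 and 28.8 in WT and 40.1, 45.6 and 44.4 in Tet2-KO, and at 40 min 50.1, 54.7 and 49.8 in WT and 86.4, 72.2 and 81.5 in Tet2-KO. The genotypes did not overlap at any time, and the log2 fold change over the 3 times was 0.72 (SE 0.05, adjusted p = 1.3e-36), close to the median gene.

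Ybx1 was the most heavily read of the 10 genes. Its level was 16.2, 18.1 and 14.2 reads per 1000 ERCC reads in WT and 36.0, 35.4 and 40.1 in Tet2-KO at 10 min, and 95.9, 95.9 and 98.0 against 191.5, 165.2 and 177.9 at 40 min. Its log2 fold changes were 1.20 (SE 0.09), 0.77 (SE 0.09) and 0.88 (SE 0.09) at 10, 20 and 40 min. Of all genes tested, 76.9% had a smaller fold change than Ybx1 over the 3 times, and 22.8% had a smaller one than Nop2.

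Nop2 had the smallest log2 fold change on average over the 3 times and at 40 min, while Nsun3 had a smaller one at 10 min and Nsun3 and Nsun6 had smaller ones at 20 min. Its level was 4.70, 4.64 and 4.12 reads per 1000 ERCC reads in WT and 6.64, 6.96 and 7.60 in Tet2-KO at 10 min, with no overlap. At 20 min it was 16.4, 17.05 and 15.0 in WT and 16.3, 20.3 and 19.6 in Tet2-KO, where the groups overlapped, with a log2 fold change of 0.21 (SE 0.09, adjusted p = 0.038).

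Nsun3 and Nsun6 were the writers that did not pass the test at 20 min. Nsun3 had 6.05, 5.85 and 5.54 reads per 1000 ERCC reads in WT and 5.78, 6.68 and 5.83 in Tet2-KO (log2 fold change 0.07, 95% interval -0.15 to 0.28), after 1.81 to 2.02 against 2.78 to 3.00 at 10 min and before 6.33 to 6.90 against 10.0 to 11.1 at 40 min. Nsun6 had 4.73, 5.28 and 4.51 in WT and 5.22, 5.73 and 5.53 in Tet2-KO at 20 min (log2 fold change 0.19, 95% interval -0.03 to 0.40). Both rose at 10 min and at 40 min, where their genotypes did not overlap.

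Among the other methyltransferases, Nsun4, the mitochondrial rRNA enzyme, rose by a log2 fold change of 0.78 (SE 0.07), Trdmt1, the tRNA enzyme once named Dnmt2, by 0.70 (SE 0.08) and Nsun5 by 0.68 (SE 0.08). The reader Alyref rose by 0.74 (SE 0.06). Nsun7, the least read of the genes with 59 to 372 reads a library, rose by 0.83 (SE 0.10), and its 10 min value of 1.502 (SE 0.16) was the largest of the members at any time. One library made that value larger: Tet2-KO replicate 1 at 10 min had 1.59 reads per 1000 ERCC reads, the others 0.900 and 1.15. The WT libraries had 0.418, 0.452 and 0.418. Without that Tet2-KO replicate the value was 1.25, still called. At 40 min Nsun7 rose by 0.60 (SE 0.19), and without WT replicate 3 of that time the value was 0.45 with an adjusted p of 0.050.

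The rise common to most genes cancels when each gene is taken as a share of all gene reads, here CPM after TMM scaling. On that scale 3 of the 10 genes differed on average over the 3 times. Ybx1 rose, by a log2 fold change of 0.26 (SE 0.02, adjusted p = 3.1e-14), as did 28.6% of all genes tested. Nop2 fell by 0.29 on the log2 scale (SE 0.03, adjusted p = 3.1e-11) and Nsun3 fell by 0.24 (SE 0.04, adjusted p = 9.3e-06), as did 27.9% of all genes tested. Being called on this scale was therefore common in the table, and 7 of the 10 members did not pass the test.

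**Figure D2:**
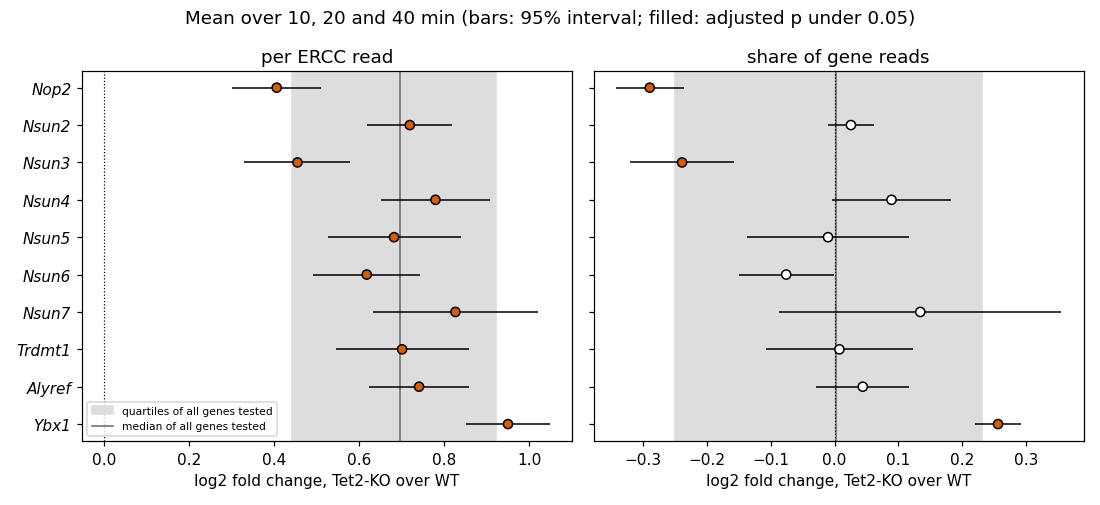
Log2 fold change of Tet2-KO over WT (x axis), on average over 10, 20 and 40 min, for each gene (y axis), per ERCC read (left) and as a share of gene reads (right). Points are estimates from 9 libraries a genotype with 95% intervals, filled where the adjusted p is under 0.05, and the grey band and line are the quartiles and the median of all genes tested. On the left the genes lie around the median of 0.70, and on the right Nop2 and Ybx1 lie just outside the quartiles of -0.25 and 0.23.

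Ybx1, the reader, had shares of 333, 342 and 317 CPM in WT and 375, 399 and 400 in Tet2-KO at 10 min. At 20 min it had 341, 347 and 352 against 429, 444 and 423, and at 40 min 404, 381 and 422 against 464, 467 and 465. The genotypes did not overlap at any time, and Ybx1 was called at each of them, with log2 fold changes of 0.24, 0.32 and 0.21 (SE 0.03 each). A processed pseudogene, Ybx1-ps2, held 800 reads over the 18 libraries beside 143128 for Ybx1, and how reads that fit both were counted was not tested.

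Nop2, the rRNA writer, had shares of 96.6, 87.7 and 92.03 CPM in WT and 69.3, 78.4 and 75.95 in Tet2-KO at 10 min. At 20 min the values were 111, 107 and 103 against 84.8, 94.3 and 92.9, and at 40 min 137, 131 and 129 against 106, 107 and 104. Every Tet2-KO library was below every WT library of its time, and the log2 fold changes were -0.31, -0.24 and -0.32 (SE 0.05 each), each called. Nop2 thus rose per ERCC read but by less than the median gene, which is what its lower share states. Chd4, a gene on the same strand 1318 bases from Nop2, held 148802 reads over the 18 libraries against 36695 for Nop2. Iffo1, also on that strand, lies 488 bases from Nop2 and held 6796 reads. Whether reads from either neighbour were counted on Nop2 was not tested.

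Nsun3, the mitochondrial tRNA writer, differed at 10 and 20 min and did not pass the test at 40 min. Its share was 37.1, 38.1 and 40.8 CPM in WT and 29.0, 33.7 and 28.8 in Tet2-KO at 10 min, and 40.9, 36.6 and 38.2 against 30.1, 31.1 and 27.6 at 20 min, without overlap. At 40 min it was 26.6, 27.4 and 29.3 in WT and 26.8, 28.4 and 28.7 in Tet2-KO, and these overlapped. The log2 fold changes were -0.34 (SE 0.07, adjusted p = 0.00014), -0.38 (SE 0.07, adjusted p = 5.0e-05) and 0.01 (SE 0.07, 95% interval -0.14 to 0.16).

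**Figure D3:**
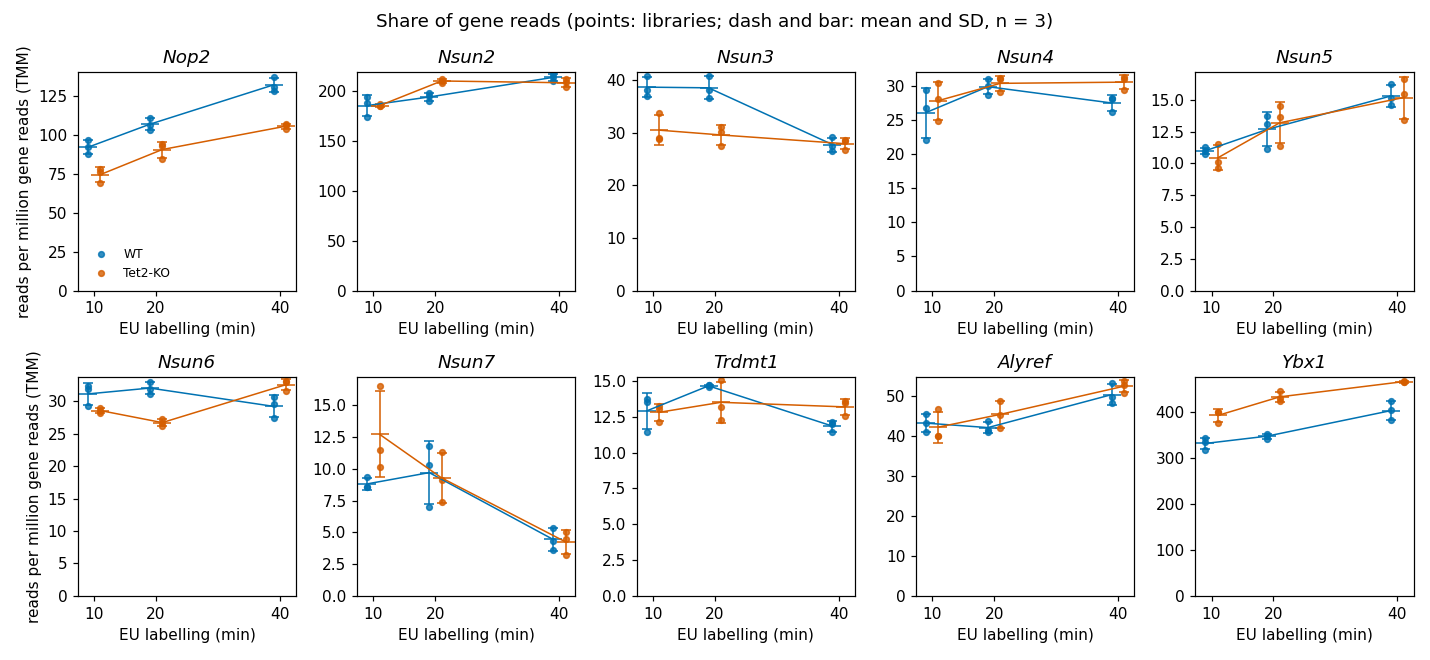
Share of gene reads of each gene, in CPM after TMM scaling (y axis, from 0), against EU labelling time in min (x axis), for WT (blue) and Tet2-KO (orange) libraries. Points are libraries, and dashes with bars are the mean and SD of 3. Nop2 lies lower and Ybx1 higher in Tet2-KO at every time, Nsun3 is lower at 10 and 20 min only, and Nsun7 falls in both genotypes.

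Single times added 3 calls to these. Of the members, 4 differed in share at 10 min (43.9% of all genes did), 5 at 20 min (38.6%) and 2 at 40 min (38.3%). Beside Nop2, Nsun3 and Ybx1, the calls were Nsun7 at 10 min and Nsun2 and Nsun6 at 20 min. Nsun2 was higher, with shares of 195, 190 and 199 CPM in WT and 209, 213 and 210 in Tet2-KO (log2 fold change 0.11, SE 0.03, adjusted p = 0.0044). With plain gene read totals Nsun2 had 0.077 at 20 min and was not called (adjusted p = 0.056). Nsun6 was lower, with 31.9, 33.0 and 31.1 in WT and 27.2, 26.7 and 26.2 in Tet2-KO (log2 fold change -0.26, SE 0.07, adjusted p = 0.0018). The libraries of both did not overlap at that time.

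Nsun7 was called higher at 10 min on the strength of 1 library. Its share was 8.58, 8.55 and 9.33 CPM in WT and 16.6, 10.1 and 11.4 in Tet2-KO (log2 fold change 0.54, SE 0.18, adjusted p = 0.014). Without Tet2-KO replicate 1 the log2 fold change was 0.29 with an adjusted p of 0.21. Nsun7 ends 677 bases from Apbb2, a gene on the other strand with 190178 reads over the 18 libraries against 3033 for Nsun7, and whether a small part of those reads was counted on Nsun7 was not tested. The share of Apbb2 was 491 to 533 CPM in WT and 497 to 563 in Tet2-KO libraries. Other members have neighbours on the other strand too. Pom121 overlaps exons of Nsun5 by 665 bases and held 14211 reads against 4711. Arl5b overlaps Nsun6 by 5675 bases and held 18354 reads against 10968, and Anapc11 lies 56 bases from Alyref. Srd5a1 and Tent4a overlap Nsun2. Whether reads of these neighbours were counted on the members was not tested.

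**Figure D4:**
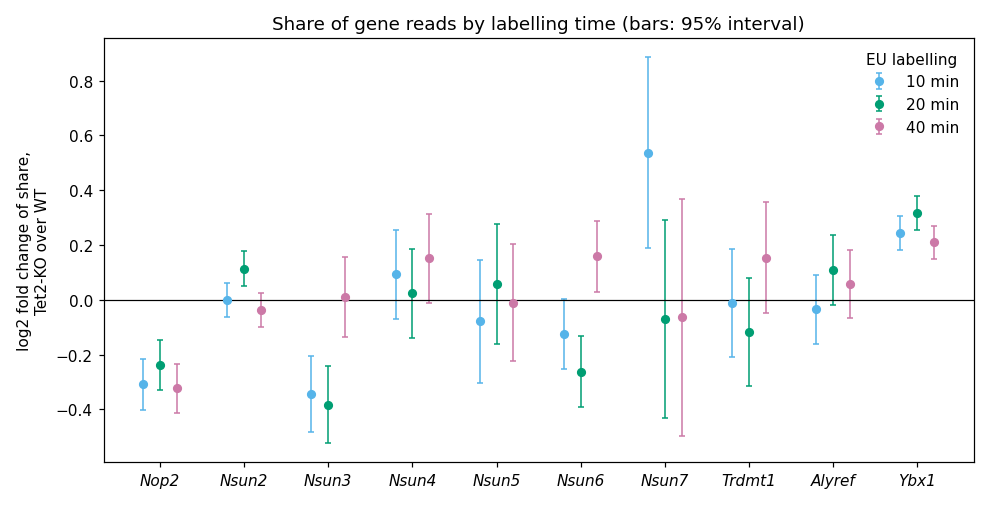
Log2 fold change of the share of gene reads, Tet2-KO over WT (y axis), at 10, 20 and 40 min of EU (colours) for each gene (x axis), with 95% intervals from 3 libraries a group. Nop2 lies below 0 and Ybx1 above 0 at every time, Nsun3 moves from -0.34 at 10 min to 0.01 at 40 min and Nsun6 from -0.26 at 20 min to 0.16 at 40 min.

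The remaining 7 genes did not pass the test on average. Over the 3 times the log2 fold change was 0.03 for Nsun2 (95% interval -0.01 to 0.06), 0.09 for Nsun4 (-0.01 to 0.18) and -0.01 for Nsun5 (-0.14 to 0.12). It was 0.01 for Trdmt1 (-0.11 to 0.12) and 0.04 for Alyref (-0.03 to 0.12). For Nsun6 it was -0.08 (-0.15 to -0.00099), where the F test gave an unadjusted p of 0.056 and an adjusted p of 0.091. For Nsun7 it was 0.13 with a wide interval of -0.09 to 0.36. The interval of Nsun2 was the narrowest of these. Nsun6 was also called lower, beside Nop2 and Nsun3, with plain gene read totals (-0.12, adjusted p = 0.0098), with genes of at least 10 counts in every library (-0.08, adjusted p = 0.049) and without WT replicate 2 of 10 min (-0.10, adjusted p = 0.027).

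The shares of most of the genes differed between 10 and 40 min of labelling, in both genotypes. A longer pulse collects RNA that has had more time to be spliced and turned over. The part of this in the share changes was not tested. In WT, 5 genes rose in share from 10 to 40 min (22.8% of all genes did) and 2 fell (22.0%). In Tet2-KO 6 rose (20.1%) and 1 fell (16.8%). Nop2 rose by a log2 fold change of 0.52 (SE 0.05) in WT and 0.51 (SE 0.05) in Tet2-KO, Nsun5 by 0.48 (SE 0.11) and 0.54 (SE 0.11), Ybx1 by 0.28 (SE 0.03) and 0.25 (SE 0.03), Alyref by 0.22 (SE 0.06) and 0.31 (SE 0.06), and Nsun2 by 0.20 (SE 0.03) and 0.17 (SE 0.03). With plain gene read totals in place of TMM scaling the median of all genes in WT moved from -0.03 to -0.14 and the higher calls among all calls from 50.9% to 35.2%, while Nop2, Nsun2, Nsun5 and Ybx1 were still called higher. The WT rise of Alyref was 0.16 and not called without WT replicate 3 of 10 min.

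Nsun7 went the other way in both genotypes. Its share fell by 0.99 on the log2 scale in WT (SE 0.20, adjusted p = 0.00010) and by 1.59 in Tet2-KO (SE 0.20, adjusted p = 6.7e-08). At 40 min the libraries held 4.35, 5.38 and 3.61 CPM in WT and 3.23, 4.51 and 5.02 in Tet2-KO, all below the libraries of 10 min. Per ERCC read the level of Nsun7 was 0.74-fold at 40 min relative to 20 min in WT and 0.85-fold in Tet2-KO, while the level of every other member rose over that step, by 1.15-fold to 2.27-fold.

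Nsun3 and Nsun6 were the 2 genes whose genotype difference changed with labelling time, where 10.0% of all genes tested did so. Nsun3 fell in share in WT (log2 fold change -0.48, SE 0.07, adjusted p = 1.1e-06) and had -0.12 (SE 0.07, adjusted p = 0.20) in Tet2-KO, and the difference between the genotypes changed by 0.35 (SE 0.10, adjusted p = 0.022). Nsun6 had -0.09 (SE 0.07, adjusted p = 0.26) in WT and rose by 0.19 (SE 0.07, adjusted p = 0.024) in Tet2-KO, and the difference changed by 0.28 (SE 0.09, adjusted p = 0.048). These comparisons share libraries with those at single times. Both calls were near the threshold: leaving out 1 library at a time kept Nsun3 called in 13 of 18 fits and Nsun6 in 2 of 18. Nsun3 lost its call, with changes of 0.32 to 0.34, without WT replicate 1 or Tet2-KO replicate 2 or 3 of 40 min, or without Tet2-KO replicate 1 or 3 of 10 min. Nsun6 kept its call without WT replicate 2 of 10 min or WT replicate 3 of 40 min only, and the rise of Nsun6 in Tet2-KO was lost without Tet2-KO replicate 1 or 3 of 10 min or replicate 2 or 3 of 40 min (0.18 to 0.19). With plain gene read totals Nsun6 was instead called lower in WT (-0.19, adjusted p = 0.014) and not called in Tet2-KO (0.15, adjusted p = 0.086), and fitting all genes with at least 1 count also lost the Tet2-KO call (0.17, adjusted p = 0.10).

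A synthesis rate was taken as the slope of the level per 1000 ERCC reads on labelling time over the 9 libraries of a genotype. The slope of Nsun2 was 1.37 ± 0.10 (SE) per min in WT and 2.04 ± 0.13 in Tet2-KO, a ratio of 1.49 ± 0.14. That of Ybx1 was 2.61 ± 0.14 in WT and 4.67 ± 0.22 in Tet2-KO, a ratio of 1.79 ± 0.13. Nop2 had the lowest ratio of the genes with a clear slope, 1.24 ± 0.09, from 0.892 ± 0.046 and 1.11 ± 0.05. The ratio was above 1 for 9 of the genes and was 1.65 for Alyref, 1.57 for Nsun5, 1.78 for Nsun4, 1.79 for Nsun3, 1.86 for Trdmt1 and 1.90 for Nsun6.

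The median ratio of the 10 genes was 1.71, within the quartiles of 1.29 and 1.86 over protein-coding genes, whose median was 1.54 (15075 of 15158 genes had a slope above 0 in both genotypes). Nsun7 had no usable slope, since its level did not grow steadily with time, being 3.39-fold at 20 min relative to 10 min in WT and 0.74-fold at 40 min relative to 20 min: the coefficient of determination was 0.18 in WT and 0.10 in Tet2-KO, and the ratio was 0.61 ± 0.85. In WT all gene reads per ERCC read rose by 3.15-fold from 10 to 20 min and by 1.68-fold from 20 to 40 min, and each of the 10 genes had a smaller fold over the later step than over the earlier one. Below the value of all gene reads over the later step were Nsun3, Trdmt1, Nsun6 and Nsun4, with 1.15-fold, 1.29-fold, 1.45-fold and 1.46-fold, and Nsun7. In Tet2-KO the same 4 genes had 1.75-fold, 1.83-fold, 2.27-fold and 1.87-fold, beside 1.93-fold for all gene reads. The ratio of slopes therefore depends on the times used, with a median of 1.06 from 10 and 20 min and 1.94 from 20 and 40 min.

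To set the genes against each other, shares were divided by length. Reads were counted over whole GENCODE genes, so a span fits better than exons. The span was taken here from RefSeq, because most of the GENCODE span of Nsun2 lies before its main transcripts. RefSeq spans of other genes differ from the GENCODE ones too. They are 3.896 against 6.245 kb for Alyref and 18.939 against 16.624 kb for Ybx1. The order given next therefore depends on this choice of length. At 40 min in WT, Ybx1 had 21.2 ± 1.1 CPM per kb (SD, n = 3), Alyref 12.9 ± 0.7, Nop2 10.3 ± 0.3 and Nsun2 9.01 ± 0.14. A wide step followed, to 2.23 ± 0.12 for Nsun5, 1.31 ± 0.05 for Nsun4, 0.510 ± 0.025 for Nsun3, 0.451 ± 0.026 for Nsun6, 0.297 ± 0.010 for Trdmt1 and 0.111 ± 0.022 for Nsun7. The libraries of each gene in this order did not overlap with those of the next one in WT at 40 min.

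**Figure D5:**
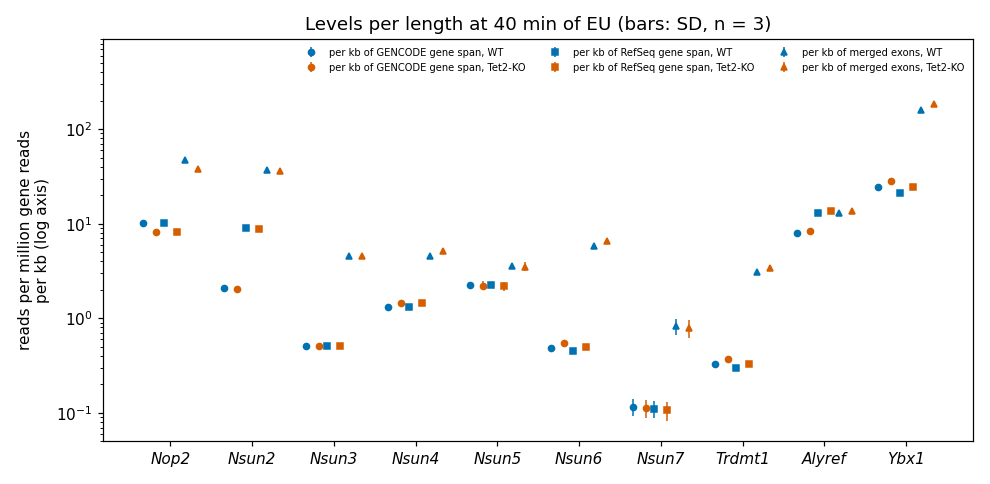
Share of gene reads per kb of gene (y axis, log scale) at 40 min of EU in WT (blue) and Tet2-KO (orange), as means with SD of 3 libraries, over 3 measures of length (marker shapes). Both readers, Nop2 and Nsun2 lie highest on the RefSeq span, and the value of Nsun2 depends most on the length used.

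The order was nearly the same in Tet2-KO, where Nsun2 stood above Nop2, and Nsun3 and Nsun6 overlapped. Other lengths gave another order below Ybx1. On the GENCODE span Alyref, at 8.07 ± 0.41 in WT, stood behind Nop2 at 10.3 ± 0.3, and per kb of merged exons it was at 13.1 ± 0.7, the fourth of the 10 genes. On the GENCODE span Nsun2 fell to 2.10 ± 0.03 in WT, overlapping with Nsun5 at 2.23 ± 0.12, and per kb of merged exons it stood at 37.3 ± 0.6, behind Ybx1 at 158.9 ± 8.2 and Nop2 at 47.7 ± 1.6. Nsun7 was lowest on all 3 lengths.

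The genes whose share followed that of Nsun2 most closely over the 18 libraries, among 15158 protein-coding genes, were Metap1 (Pearson's r of log2 share = 0.946), Rae1 (0.929) and Gadd45b (0.925). Those nearest to Nop2 were Nynrin (0.966), Smc1a (0.965) and Fblim1 (0.964). The points share genotype and labelling time, which move many genes alike, so these values are a description. Among the members themselves the highest correlation was that of Nsun2 and Nsun5 (0.734) and the lowest that of Nsun7 and Alyref (-0.842).

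Other genes of the pathway were read from the same fits. Of 29 listed, 28 could be tested (Zc3h11a is split over 2 overlapping identifiers). Per ERCC read 28 rose over the 3 times together (80.5% of all genes tested did). At 10, 20 and 40 min 28, 23 and 26 rose (79.0%, 53.7% and 68.2%), and none was lower in any of these comparisons. Their median log2 fold change over the 3 times was 0.69. As a share of gene reads 7 of the 28 rose and 10 fell, beside 28.6% and 27.9% of all genes tested, with a median of -0.0049. For the change of the genotype difference with labelling time, 1 was called higher and 6 lower, where 10.0% of all genes tested were called in either direction. These counts were not tested against those of the members.

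Among the enzymes that oxidize RNA m5C, Tet1 rose in share by a log2 fold change of 0.12 (SE 0.01) and Alkbh1 by 0.19 (SE 0.01), while Tet2 fell by 0.16 (SE 0.01) and Pspc1, an RNA-binding protein that recruits TET2, fell by 0.05 (SE 0.02). Tet3 had 0.00 (SE 0.05). The reads of Tet2 were counted over the whole gene, as above.

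Of 5 other proteins reported to bind the mark, Ythdf2 rose by 0.17 (SE 0.02) and Srsf2 by 0.10 (SE 0.03), Lin28b fell by 0.40 (SE 0.03), and Mbd6 (0.01, SE 0.04) and Fmr1 (-0.01, SE 0.02) did not pass the test. Elavl1, which binds mRNA together with YBX1, rose by 0.19 (SE 0.02), and the paralogue Ybx3 fell by 0.24 (SE 0.02), the opposite direction to Ybx1. Alyref2 and Ybx2 did not pass the test.

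Of 11 tested mRNA export genes that work with ALYREF, set against the same 28.6% and 27.9%, 1 rose (Thoc2, 0.08, SE 0.02) and 4 fell: Thoc1 by 0.26 (SE 0.02), Chtop by 0.24 (SE 0.02), Thoc7 by 0.20 (SE 0.03) and Thoc6 by 0.20 (SE 0.07). Alyref itself did not pass. Of the partners of the writers, Qtrt1, a tRNA-modifying enzyme tied to Trdmt1's tRNA, rose by 0.13 (SE 0.05), and its partner Qtrt2 (-0.07, SE 0.03) and the NSUN4 cofactor Mterf4 (-0.16, SE 0.05) fell. Each of these values is a change in the share of gene reads over the 3 times. Per ERCC read all of the pathway genes that could be tested rose over the 3 times, and Zc3h11a could not be tested.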

How the data were processed

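Nascent RNA of 18 libraries was analysed. The authors trimmed reads with Trimmomatic 0.39, aligned them with HISAT2 2.2.1 to mm10 with ERCC sequences, and deposited HTSeq 0.12.4 counts per gene, not normalized. Feature type and strand setting are not given in the sources used here. In the counts, 1102 of 1102 genes of at least 500 bases within an intron of a same-strand gene with at least 10000 reads had 0 reads, against 6.84% of 789 on the opposite strand, so whole genes were counted by strand and reads shared by same-strand genes were dropped. Reads on no feature (13.2% to 16.9%) were left out.

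Genes passing filterByExpr were fitted with edgeR 4.0.16 (R 4.3.3; quasi-likelihood F test, 6 groups, Benjamini-Hochberg threshold 0.05 over 19910 genes), with ERCC totals or TMM-scaled gene totals as library sizes. On simulated data for the mean contrast (19210 genes), 198 of 200 changed genes were recovered and 13 others called. The simulated libraries had no effect of labelling time and few changed genes, unlike the real ones. These recovery counts therefore do not carry over to the real libraries. The members and lists were chosen with earlier results of these data known. Named genes are all members, Tet2 and the 3 largest called share changes each way among other pathway genes, with the genes most like Nsun2 and like the member of largest share change; the remaining pathway genes and markers were named after their values were seen. Levels per kb of merged exons were planned; the RefSeq span was chosen after seeing the data. Alternatives were DESeq2 1.42.0, other scalings, filters and lengths, a replicate block and leaving out each library. ERCC were added to eluted RNA in proportion to total RNA, so levels are relative to total RNA. Intervals cover the spread between dishes. They take the SE with a normal distribution, so they can be narrower than the F test implies.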

Additional observations from a re-analysis of the deposited data

Results flagged for a closer look

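The difference between genotypes in the share of gene reads changed from 10 to 40 min of labelling for 2 of the 10 genes, by the test of that change itself in edgeR's quasi-likelihood fit. For Nsun3 the change was 0.35 on the log2 scale (SE 0.10, adjusted p = 0.022), from -0.34 at 10 min to 0.01 at 40 min, and its adjusted p ranged from 0.0059 to 0.067 over 25 alternatives. For Nsun6 the change was 0.28 (SE 0.09, adjusted p = 0.048), from -0.12 at 10 min to 0.16 at 40 min, and its adjusted p ranged from 0.016 to 0.15. Of all genes tested, 10.0% were called in the same test. Feeder markers and total labelled RNA also differed by genotype and time, and their part was not tested. Groups of 3 are too small for a check of single outlying libraries.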

How the results depend on the processing

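Values of single genes in this section are log2 fold changes of share, unless ERCC reads or a slope ratio are named. Over the alternatives run, the lower average share of Nop2 (-0.33 to -0.27) and Nsun3 (-0.28 to -0.22) was called in 25 of 25. The higher one of Ybx1 (0.22 to 0.27) was also called in 25 of 25. Replicate numbers did not pair the libraries: deviations of same-numbered libraries correlated with a median r of -0.007 over 45 pairs (-0.072 to 0.064). With the replicate number as a block, 1 gene rather than 2 was called for the change of the genotype difference with time. The log2 fold change of the Nsun2 share at 10 min was then 3.63e-05. The cause of the changes below was not tested. Fitting all genes with at least 1 count gave 5 genes higher per ERCC read at 20 min and 1 for the change with time. The log2 fold changes of share were then -0.011 for Trdmt1 on average and -0.016 for Nsun3 at 40 min. Requiring 10 counts in every library, or protein-coding genes only, gave 2 genes higher in share at 40 min, and respectively -0.0011 for Trdmt1 on average and 0.0053 for the change of Nop2. DESeq2's size factors gave 1 gene for the change with time. Plain gene read totals gave 1 gene higher in share at 20 min, -0.014 for Nsun2 and -0.032 for Trdmt1 on average, -0.014 for Nsun4 at 20 min, -0.0027 for Nsun3 at 40 min, changes with time of 0.042 for Nop2, 0.020 for Nsun2 and 0.024 for Ybx1, -0.025 for Nsun4 in WT and -0.0011 for Trdmt1 in Tet2-KO from 10 to 40 min. The slope ratio had a median of 1.06 from 10 and 20 min, where Nop2 had 0.999, Nsun3 0.817, Nsun6 0.839 and Trdmt1 0.982, and of 1.94 from 20 and 40 min. Through the origin, Nsun7 had 1.504.

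Leaving out 1 library at a time gave 5 to 8 genes higher per ERCC read at 20 min, 1 to 2 higher in share on average, at 10 min and at 40 min, and 0 to 2 for the change with time. Log2 fold changes near 0 changed sign: Nsun3 per ERCC read at 20 min (-0.0023 to 0.11). For average shares these were Nsun5 (-0.034 to 0.023) and Trdmt1 (-0.028 to 0.031). At 10 min they were Nsun2 (-0.058 to 0.019), Nsun4 (-0.026 to 0.17), Trdmt1 (-0.11 to 0.029) and Alyref (-0.11 to 0.0076). At 20 min they were Nsun4 (-0.00069 to 0.055), Nsun5 (-0.021 to 0.15) and Nsun7 (-0.25 to 0.10). At 40 min they were Nsun3 (-0.019 to 0.050), Nsun5 (-0.081 to 0.072) and Nsun7 (-0.19 to 0.10). For the change with time they were Nop2 (-0.069 to 0.030), Nsun2 (-0.060 to 0.018), Nsun4 (-0.023 to 0.17), Nsun5 (-0.0041 to 0.15) and Ybx1 (-0.064 to 0.0087). For WT from 10 to 40 min it was Nsun4 (-0.054 to 0.14), and the slope ratio of Nsun7 ran from 0.174 to 1.05. Of 2940 values of single genes, 2791 kept direction and call. Nsun7, with 59 reads in its lowest library, is where depth limits most.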
